A study of Jatropha curcas with 4 samples.

Results

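The ERF genes of group IX whose transcripts changed in waterlogged Jatropha (Jatropha curcas) roots were JcERFIX-3, JcERFIX-8, JcERFIX-10, JcERFIX-11, JcERFIX-14 and JcERFIX-18, 6 of the 57437 gene models counted and 6 of the 20 group IX genes listed. They were chosen by their adjusted p in the comparison described here (under 0.05), so their fold changes and adjusted p values describe the choice and are no test of it. Whole roots of plants of the cultivar "Chai Nat", about 30 days old, were collected 24 h into waterlogging (WS), with the water 3 cm over the soil surface, or from non-stress (NS) plants kept for the same 24 h. Each treatment had 2 libraries, which the methods call independent biological replicates, and neither the labels nor the methods describe a transgene or mutation. JcERFIX-4 was not analysed here.

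ERF proteins are plant transcription factors that bind DNA through a single AP2/ERF domain. In Arabidopsis, group IX holds activators such as ERF1 and ORA59 as well as ERF5 and ERF6, which are known for responses to the gaseous hormone ethylene, to jasmonate and to pathogens. Ethylene collects in flooded roots because it escapes slowly through water, whereas the ERF genes best known for low oxygen in Arabidopsis belong to group VII. The roles of the individual Jatropha genes below are not annotated in the files, so each is described by its model, its domain and its counts.

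All 6 genes held the complete domain of 58 residues, found by a pattern search of the listed proteins. Each had alanine at residue 14 and aspartate at residue 19 of the domain, the residues by which ERF proteins are usually separated from the related DREB proteins. This pair was present in 18 of the 19 group IX genes with a domain found, the exception being JcERFIX-19, and in all genes with a domain found in groups VI, VII and X, so it is not particular to the 6 genes. In groups I to IV, 26 of 26 genes with a domain found had valine at residue 14. So did 5 of 5 in group V, so this valine was not limited to groups I to IV. The coding bases below are shown to let the 6 domains be compared. They run 5′ to 3′ from the first codon of the domain, and capitals mark the codons of residues 14 and 19. The listed coding sequences used here stop after 400 bases, so the run ends before codon 19 in JcERFIX-3 and before the end of the domain in JcERFIX-8, JcERFIX-14 and JcERFIX-18.

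JcERFIX-3: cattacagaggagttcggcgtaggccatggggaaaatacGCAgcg
JcERFIX-8: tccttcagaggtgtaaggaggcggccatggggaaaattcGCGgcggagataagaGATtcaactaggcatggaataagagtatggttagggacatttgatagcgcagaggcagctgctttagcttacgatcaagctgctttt
JcERFIX-10: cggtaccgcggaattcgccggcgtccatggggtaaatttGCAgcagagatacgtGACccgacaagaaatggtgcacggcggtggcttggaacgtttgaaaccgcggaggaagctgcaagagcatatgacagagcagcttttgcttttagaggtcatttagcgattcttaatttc
JcERFIX-11: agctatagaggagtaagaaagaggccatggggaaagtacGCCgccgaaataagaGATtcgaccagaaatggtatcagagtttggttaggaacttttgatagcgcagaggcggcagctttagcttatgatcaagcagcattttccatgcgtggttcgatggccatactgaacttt
JcERFIX-14: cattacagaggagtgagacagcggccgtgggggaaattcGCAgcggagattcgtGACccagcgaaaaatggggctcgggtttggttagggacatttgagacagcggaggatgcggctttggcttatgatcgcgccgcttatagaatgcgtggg
JcERFIX-18: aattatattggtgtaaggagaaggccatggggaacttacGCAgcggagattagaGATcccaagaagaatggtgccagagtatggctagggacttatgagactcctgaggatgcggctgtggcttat

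The capitals show 3 different codons for the alanine among the 6 genes and 2 for the aspartate among the 5 genes where it is shown. Over the whole domain, the 15 pairs among the 6 proteins shared 63.8% to 87.9% of their residues, with a median of 74.1%. JcERFIX-8 and JcERFIX-11 were the most alike, with 51 of 58 residues in common, and JcERFIX-8 and JcERFIX-18 the least. Outside the domain they differed more. The whole proteins of JcERFIX-8 and JcERFIX-11 shared 47.4% of the aligned residues.

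Within the bases at hand, the longest identical runs that the 6 genes shared with another listed AP2/ERF gene were 17 to 23 bases. These bases left out the domain of JcERFIX-16, JcERFIX-20 and JcERFIX-21 and held only 15 domain bases of JcERFIX-2. Yet the domain of JcERFIX-16 shared 91.4% of residues with JcERFIX-3, and that of JcERFIX-2 shared 94.8% with JcERFIX-14. JcERFIX-20 and JcERFIX-21 each shared 87.9% with JcERFIX-18. Whether reads from such relatives were counted for the 6 genes was therefore not tested. The sources used here do not say how the authors treated reads that matched several places. No other gene model overlapped any of the 6, so none shares bases with an annotated antisense partner.

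The summed counts ranged from 1204502 (NS replicate 2) to 6110438 (NS replicate 1) per library, with 4143491 and 2531520 in WS replicates 1 and 2. NS replicate 2 was therefore the least sensitive library: a count of 0 there allows up to 2.27 CPM (3 counts), whereas in the other libraries it allows 0.460 (NS replicate 1), 0.80 (WS replicate 1) and 1.27 CPM (WS replicate 2). CPM (counts per 1e6 counts of a library) were computed over library sizes multiplied by their TMM factor, and floors and intervals here cover counting error only. Transcripts of ADHa, an alcohol dehydrogenase of the fermentation used without oxygen, had 215 and 184 CPM in NS and 8042 and 11420 CPM in WS, which matches the labels. ADHb rose by 5.17 on the log2 scale (adjusted p = 0.00377, edgeR quasi-likelihood test), whereas actin (-0.83, adjusted p = 0.299) did not pass. The 7 photosynthesis genes at hand, taken as markers of green tissue, summed to 65.2 to 77.2 CPM in NS and 37.6 to 68.8 CPM in WS. In each library 5 to 7 of them had a read, and none was at 0 throughout. The latter follows from their choice, since they came from the study's own list of changed genes in these libraries. For the same reason their sum is no independent measure of green tissue. Their part in the results was not tested, and markers of root cell types were not analysed here. In whole roots, fewer cells of a type and less RNA per cell cannot be told apart.

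In total, 17410 gene models reached 1 CPM in 2 or more libraries and were tested, of which 427 (2.45%) passed the edgeR quasi-likelihood test as higher in WS and 333 (1.91%) as lower. Group IX contributed 14 tested genes, of which 5 were higher and 1 was lower. These shares use the contrast that chose the genes and are given as background only. JcERFIX-8 and JcERFIX-10 reached the 1 CPM minimum in the WS libraries alone and JcERFIX-18 in the NS libraries alone, so a difference was built into their passing.

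JcERFIX-14 had the highest level per coding length in waterlogged roots among the 5 higher genes. It is gene model Jcr4S05515.20, a single coding exon of 672 bases for 223 residues on scaffold Jcr4S05515 from 11387 to 12058, plus strand. It had 32 and 0 reads in NS replicates 1 and 2, against 2133 and 624 in WS replicates 1 and 2. On the CPM scale these were 4.91 and 0 in NS and 569 and 263 in WS, so the groups were far apart and NS replicate 2 held no read at all. The fitted log2 fold change was 7.01 (SE 0.96, adjusted p = 0.00599, edgeR quasi-likelihood test). SE here and below is the size of the log2 fold change over the square root of the test statistic. It is not a standard error taken from the fit. The ratio of pooled reads per summed TMM-scaled library size was 110-fold (95% exact counting interval 78.0 to 162). Without WS replicate 1 the log2 fold change was 6.32 and without NS replicate 2 it was 6.40. Without NS replicate 1 no NS read remained, and the fitted value of 13.01 is then no estimate of size. Without either NS library its adjusted p passed the threshold no longer (0.0592 and 0.0666).

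JcERFIX-3 had the smallest gap between its WS libraries among the 5 higher genes. It is Jcr4S01276.110, a single coding exon of 825 bases for 274 residues on scaffold Jcr4S01276 from 35653 to 36477, plus strand. It had 66 and 12 reads in NS and 542 and 232 in WS, or 10.1 and 9.10 CPM against 145 and 97.9 CPM. The gene was thus already transcribed in non-stressed roots in both libraries, and both WS libraries stood well above them. Its log2 fold change was 3.64 (SE 0.54, adjusted p = 0.00754), the smallest in size of the 6, and the pooled ratio was 12.7-fold (10.1 to 16.3). With any 1 library left out the log2 fold change stayed between 3.37 and 3.87, but without NS replicate 1 or 2 the adjusted p was 0.109 and 0.126.

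JcERFIX-11 is Jcr4S05283.50, a single coding exon of 543 bases for 180 residues on scaffold Jcr4S05283 from 18317 to 18859, plus strand. It had 5 and 2 reads in NS and 216 and 66 in WS, or 0.767 and 1.52 CPM against 57.6 and 27.9 CPM. Both NS levels lay near the floor of their library and both WS levels lay far above it. The log2 fold change was 5.40 (SE 0.87, adjusted p = 0.0109), and the pooled ratio was 51.6-fold (24.7 to 130). Leaving out 1 library gave log2 fold changes from 4.78 (without NS replicate 1, and also without WS replicate 1) to 5.81 (without WS replicate 2). Without NS replicate 1 or 2 its adjusted p was 0.118 and 0.0877.

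JcERFIX-10 is Jcr4S05283.40, the neighbour of JcERFIX-11, with a single coding exon of 456 bases for 151 residues from 9432 to 9887 on the minus strand. It had 1 and 0 reads in NS and 400 and 19 in WS, or 0.153 and 0 CPM against 107 and 8.02 CPM. The NS libraries were next to empty, and WS replicate 1 carried nearly all the reads. The log2 fold change was 8.50 (SE 1.58, adjusted p = 0.0195). A single NS read stands behind it, so the pooled ratio of 537 has a counting interval from 95.8 to 21250.

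JcERFIX-8 is Jcr4S03023.50, a single coding exon of 660 bases for 219 residues on scaffold Jcr4S03023 from 22492 to 23151, plus strand. It had 2 and 0 reads in NS and 381 and 20 in WS, or 0.307 and 0 CPM against 102 and 8.44 CPM. Its libraries were split like those of JcERFIX-10, with WS replicate 1 far above WS replicate 2. The log2 fold change was 7.64 (SE 1.46, adjusted p = 0.0211), and the pooled ratio was 257 (70.7 to 2128).

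JcERFIX-8 and JcERFIX-10 depended on WS replicate 1. Without it their log2 fold changes were 5.04 and 5.74, with adjusted p = 0.154 and 0.121 (edgeR quasi-likelihood test), and with limma voom on all libraries the adjusted p values were 0.113 and 0.111. Without NS replicate 1, which held their only NS reads, the adjusted p values were 0.167 and 0.170, and without NS replicate 2 they were 0.186 and 0.174.

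JcERFIX-18 was the only 1 of the 6 with lower counts in waterlogged roots. It is Jcr4S11523.10, on scaffold Jcr4S11523 from 531 to 5963, minus strand, and it differs from the others in its model as well. It has 8 coding exons with 2478 bases for 825 residues, and the annotation marks it as a transposable element. The ERF domain lies within the first exon, of 682 bases from 5282 to 5963, which an intron of 2118 bases separates from the second. Counts were given per model, so which part of it the reads came from is not known.

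JcERFIX-18 had 179 and 48 reads in NS and 0 and 1 in WS, or 27.5 and 36.4 CPM against 0 and 0.422 CPM. The NS libraries were close to each other and the WS libraries were both under their floors of 3 counts. The log2 fold change was -7.27 (SE 1.17, adjusted p = 0.0108). A single WS read stands behind it, and the pooled reads per summed TMM-scaled library size were 177-fold lower with a counting interval from 31.5 to 7028. Without WS replicate 1 the log2 fold change was -6.09, and without WS replicate 2, which held that read, the fitted value was -9.97. Without NS replicate 1 or 2 the adjusted p was 0.0705 and 0.0916.

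**Figure D1:**
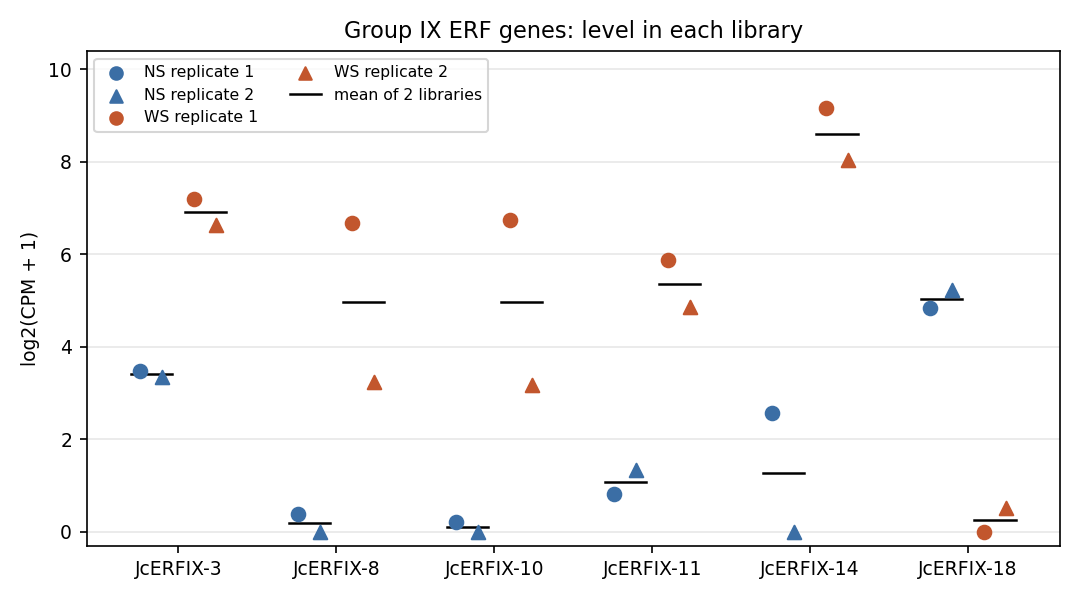
Level of the 6 genes in each library, as log2(CPM + 1), with NS in blue and WS in orange, circles for replicate 1, triangles for replicate 2 and a bar for the mean of the 2 libraries. The WS points of JcERFIX-8 and JcERFIX-10 are the farthest apart, 102 and 8.44 CPM and 107 and 8.02 CPM, and JcERFIX-18 alone has its NS points on top.

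Levels of different genes were compared as CPM per kb of coding length, for the 5 genes with a single exon. In WS, JcERFIX-14 had 847 and 392 CPM per kb in replicates 1 and 2 and was above the other 4 genes in both libraries. Below it, JcERFIX-3 had 175 and 119, JcERFIX-11 had 106 and 51.3, JcERFIX-10 had 234 and 17.6 and JcERFIX-8 had 154 and 12.8 CPM per kb. Library by library, JcERFIX-3 lay above JcERFIX-11 and JcERFIX-8, and JcERFIX-10 lay above JcERFIX-8. JcERFIX-10 changed places with JcERFIX-3 and JcERFIX-11 between the libraries, as JcERFIX-8 did with JcERFIX-11, and the ranges of JcERFIX-10 and JcERFIX-8 overlapped those of all 3 other genes. In NS the order was another one. JcERFIX-3 came first with 12.3 and 11.03 CPM per kb, followed by JcERFIX-14 with 7.30 and 0, JcERFIX-11 with 1.41 and 2.79, JcERFIX-8 with 0.465 and 0 and JcERFIX-10 with 0.336 and 0. JcERFIX-3 lay above JcERFIX-14 in both libraries and JcERFIX-11 above JcERFIX-8, the latter pair at 5 reads or fewer per library, whereas the other neighbours overlapped or were both at 0 in NS replicate 2.

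The 5 higher genes differed in how far apart their WS libraries were. WS replicate 1 exceeded WS replicate 2 by 12.04 times in JcERFIX-8 and 13.3 times in JcERFIX-10, against 1.48 in JcERFIX-3, 2.07 in JcERFIX-11 and 2.16 in JcERFIX-14. Across the 17410 genes, replicates of WS differed by a median of 1.56-fold on the CPM + 1 scale, and 90% of genes differed by less than 3.75-fold. The ratios of single genes above are of plain CPM. On the CPM + 1 scale JcERFIX-8 and JcERFIX-10 had log2 ratios of 3.44 and 3.58, and they were the 2 of the 6 beyond that bound (1.91). Outside the 6, JcERFIX-13 had a plain ratio of 8.06 (log2 2.93 on the CPM + 1 scale). JcERFIX-7, with 51 and 0 WS reads, had 3.87 on that scale. In all, 10 of the 14 tested group IX genes were higher in WS replicate 1 than in WS replicate 2. Over all genes tested the median log2 ratio was 0.011, and the share higher in WS replicate 1 was not computed. These CPM are scaled so that the libraries are centred on each other.

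**Figure D2:**
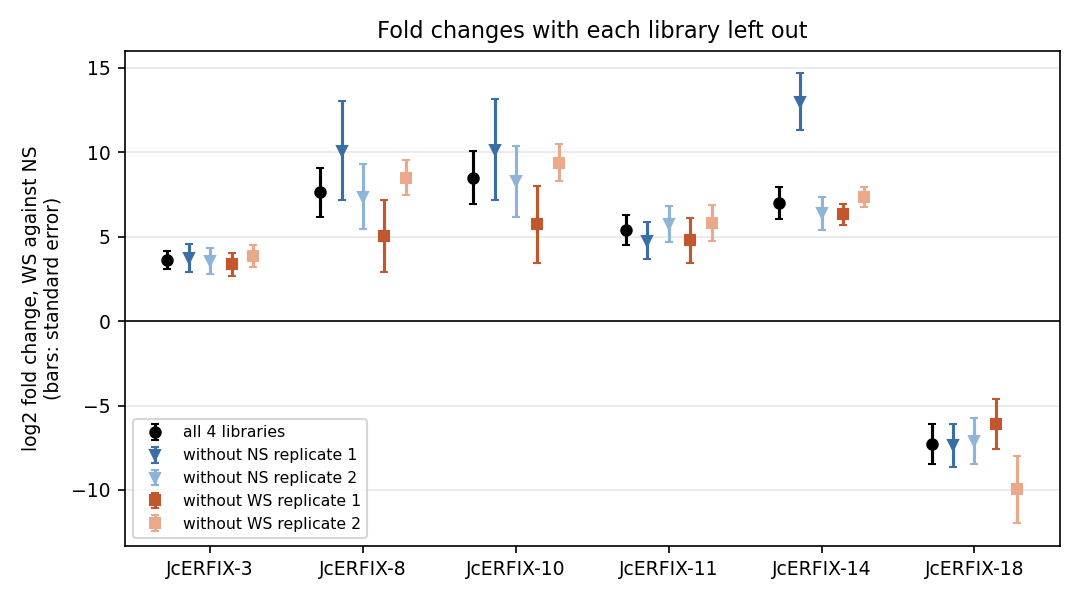
Log2 fold change (WS against NS, vertical axis) of the 6 genes with all 4 libraries and with each library left out, with bars for the SE derived from the test statistic. JcERFIX-3 moves least, from 3.37 to 3.87, and JcERFIX-8 and JcERFIX-10 fall to 5.04 and 5.74 without WS replicate 1. Some values come from fits in which the low group has no read and are no estimates of size, and their bars do not measure their uncertainty. Without NS replicate 1 these are 13.01 for JcERFIX-14, 10.1 for JcERFIX-8 and 10.16 for JcERFIX-10. Without WS replicate 2 it is -9.97 for JcERFIX-18.

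JcERFIX-10 and JcERFIX-11 are adjacent. JcERFIX-10 lies on the minus strand and JcERFIX-11 on the plus strand, so that they point away from each other, with 8429 bases and no other model between them. Their WS levels were of unlike shape, since JcERFIX-10 dropped from 107 to 8.02 CPM between the WS libraries and JcERFIX-11 from 57.6 to 27.9 CPM. Their domains shared 72.4% of residues, less than JcERFIX-11 shared with JcERFIX-8 on another scaffold (87.9%). On the other side of JcERFIX-10, 1053 bases away and pointing towards it, JcERFIX-9 had no read in any library.

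Scaffold Jcr4S03023, which carries JcERFIX-8, showed the same order of strands. JcERFIX-6 (plus), JcERFIX-7 (minus) and JcERFIX-8 (plus) follow each other there with gaps of 2038 and 9612 bases, as JcERFIX-9, JcERFIX-10 and JcERFIX-11 do on Jcr4S05283 with gaps of 1053 and 8429 bases. The genes at the same place in both rows were alike in the domain. They shared 84.5% (JcERFIX-6 and JcERFIX-9), 82.8% (JcERFIX-7 and JcERFIX-10) and 87.9% (JcERFIX-8 and JcERFIX-11). JcERFIX-7, JcERFIX-8 and JcERFIX-9 were each most alike to the gene at the same place among the group IX domains. The other genes had matches as high or higher elsewhere. JcERFIX-10 shared the same 82.8% with JcERFIX-6 and JcERFIX-9, and JcERFIX-11 the same 87.9% with JcERFIX-1 on another scaffold. JcERFIX-6 shared 86.2% with JcERFIX-13. Over the whole protein, JcERFIX-10 was nearest to JcERFIX-6 (57.0%) and JcERFIX-7 (56.7%). The counts were not alike. JcERFIX-7 had 7 and 1 reads in NS and 51 and 0 in WS and did not pass (adjusted p = 0.428), and JcERFIX-6 had 14 reads, all in WS replicate 1, and was not tested.

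JcERFIX-3 and JcERFIX-18 also stood in pairs pointing away from each other. JcERFIX-2, 4654 bases from JcERFIX-3, had 29 and 1 reads in NS and 61 and 43 in WS, a log2 fold change of 2.53 (SE 0.97, adjusted p = 0.188). JcERFIX-19, 5486 bases from JcERFIX-18, had 22 and 2 reads in NS, whereas neither WS library held any. Against a floor of 3 counts per WS library this is at least 2.37-fold lower, and the gene did not pass (adjusted p = 0.172). With 1 library left out that bound ranged from 1.47 (without NS replicate 1) to 3.27 (without NS replicate 2). JcERFIX-14 was the only group IX gene listed on its scaffold. Among these pairs, JcERFIX-10 and JcERFIX-11 were the only one with both genes past the threshold in the quasi-likelihood test.

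**Figure D3:**
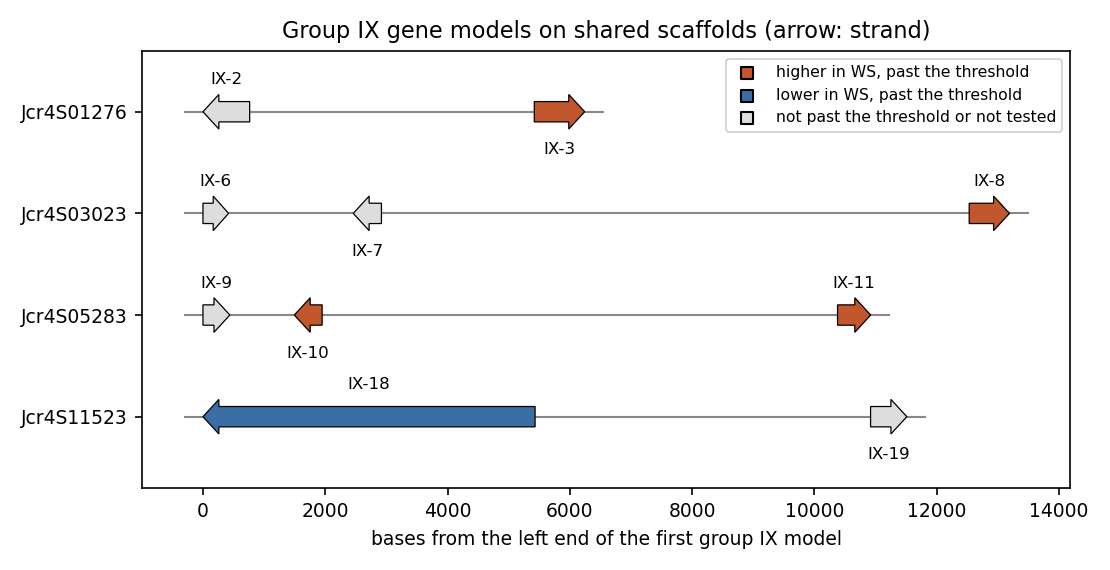
Group IX gene models on the 4 scaffolds that carry one of the 6 genes and another group IX gene, in bases from the left end of the first model, with arrows for the strand. JcERFIX-10 and JcERFIX-11 (8429 bases apart) are the only neighbours both higher in WS past the threshold, and Jcr4S03023 and Jcr4S05283 repeat the order plus, minus, plus.

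Of the 8 group IX genes that were tested and did not pass, 5 had an unadjusted p under 0.05 (quasi-likelihood test), as did 19.9% of all genes tested. Their median log2 fold change was 2.24, against 0.0081 over all genes tested. The WS libraries were both above the NS libraries in 4 of these 8 genes and both below in 1, and among all genes 25.7% had both above and 26.8% had both below. JcERFIX-1 and JcERFIX-19 are among those counted, and they reached the 1 CPM minimum only in the group where they were high, so their difference was built into their passing. The counts are a description of 8 genes and are read no further.

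The genes nearest the threshold were JcERFIX-8 inside it (adjusted p = 0.0211) and JcERFIX-1 outside it (adjusted p = 0.0553). JcERFIX-1 had no read in NS and 43 and 17 reads in WS, or 11.5 and 7.17 CPM. These are at least 6.82-fold above a floor of 3 counts per NS library, and the bound was 4.10 without NS replicate 1 and 20.3 without NS replicate 2. Its WS libraries were thus closer to each other than those of JcERFIX-8, which passed with a WS ratio of 12.04. Its protein was the nearest to JcERFIX-8 in group IX, with 55.6% of aligned residues in common, and also the nearest to JcERFIX-11, with 48.9%.

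The call of 3 of these genes depended on the test. With the likelihood ratio test, which the study's methods name and which called 917 (5.27%) of all genes as higher and 1069 (6.14%) as lower, JcERFIX-1 (adjusted p = 4.5e-04) and JcERFIX-13 (adjusted p = 0.0191) passed as higher and JcERFIX-19 (adjusted p = 0.0297) as lower. JcERFIX-13 had 75 and 11 reads in NS and 472 and 37 in WS, a log2 fold change of 2.81 (SE 0.89, quasi-likelihood adjusted p = 0.118) that was 0.67 without WS replicate 1. JcERFIX-15 had 64 and 20 reads in NS and 255 and 63 in WS (log2 fold change 1.95, adjusted p = 0.145). JcERFIX-5 and JcERFIX-16 had log2 fold changes of 0.44 and -0.37, and their libraries overlapped between treatments.

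**Figure D4:**
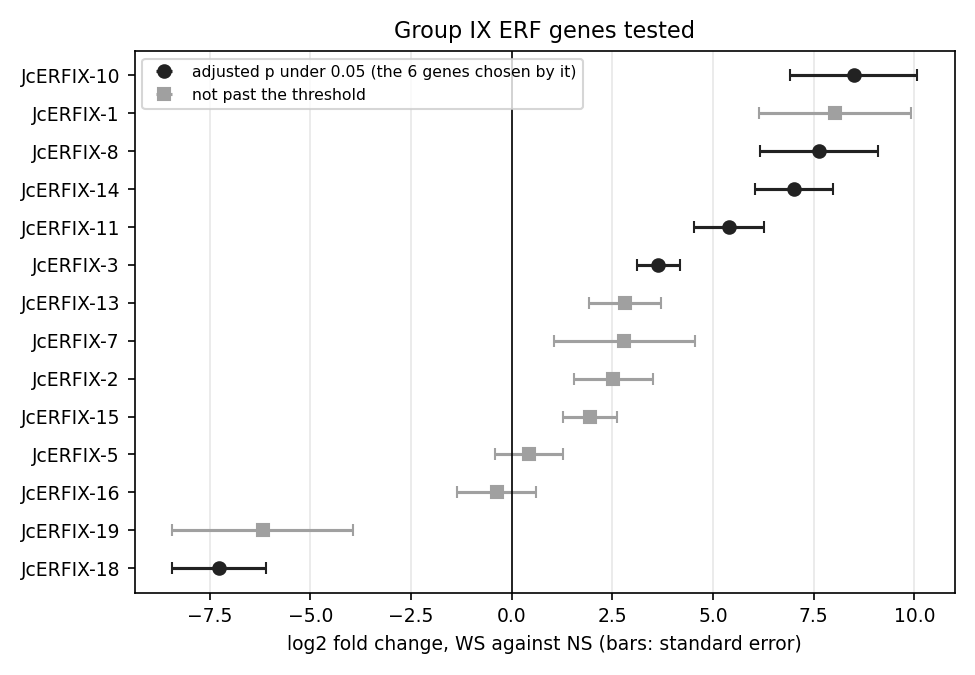
Log2 fold change (WS against NS, horizontal axis) of the 14 group IX genes tested, with bars for the SE derived from the test statistic. Black circles are the 6 genes chosen by an adjusted p under 0.05 and grey squares the other 8. JcERFIX-1, at 8.03 with an SE of 1.89, lies among the genes that passed, and JcERFIX-19 lies beside JcERFIX-18 on the side lower in WS. JcERFIX-1 and JcERFIX-19 have no read in their low group, so their bars do not measure their uncertainty.

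Of the 109 AP2/ERF genes listed outside group IX, 48 were tested and 6 passed as higher in WS and 0 as lower (edgeR quasi-likelihood test, with 16 at an unadjusted p under 0.05, against 3459 of all 17410 genes). Their median log2 fold change was 0.68, against 2.24 in the 8 tested group IX genes outside the 6. By group, the medians outside group IX ranged from -0.53 (AP2, 11 tested) to 5.42 (group X, 4 tested). Group VII (3.84) and RAV (2.58) also lay above 2.24, and the other groups with tested genes lay below it. A high median was thus not particular to group IX. The 8 genes include JcERFIX-1 and JcERFIX-19, whose difference was built into their passing the 1 CPM minimum. In group VII, home of the low-oxygen regulators of Arabidopsis, the 2 genes at hand passed, and JcERFVII-1 was not analysed here.

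The genes outside group IX with profiles most like the mean of the 5 higher genes were JcERFX-5, JcERFX-6 and JcAP2-13, by the root mean square difference in log2(CPM + 1) over the 4 libraries (0.906, 1.25 and 2.14) among 48 genes. JcERFX-5 had 8 and 0 reads in NS and 1437 and 62 in WS, or 1.23 and 0 CPM against 383 and 26.2 CPM. It shared the gap between the WS libraries seen in JcERFIX-8 and JcERFIX-10. The mean profile by which it was chosen had such a gap too (139 and 35.4 CPM in WS). Its gap and its fold change therefore describe that choice. Its log2 fold change was 7.76 (SE 1.39, adjusted p = 0.0168). JcERFX-6 had 62 and 0 reads in NS and 755 and 35 in WS and did not pass (adjusted p = 0.112), and JcAP2-13 had 23, 2, 34 and 22 reads and was already distant from the profile. With a pseudocount of 5, the third gene was JcERFVIII-7 in place of JcAP2-13.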

How the data were processed

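Poly(A) RNA of the 4 root libraries was sequenced on an Ion Proton instrument. The authors trimmed the reads (FASTX-toolkit), mapped them with TMAP to Jatropha genome release 4.5 and counted them with HTSeq, and deposited raw counts for 57437 gene models. HTSeq and edgeR are the tools in the submitters' processing notes, and the sources used here do not say whether counting used strand. Models and coordinates come from the deposited annotation of that release. The authors' own comparison table (fold changes, p-values, CPM) was not used.

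The 17410 genes that reached 1 CPM in 2 or more libraries were scaled by TMM and tested with edgeR 4.0.16 in R 4.3.3 (glmQLFit and glmQLFTest, two-sided, no covariate, Benjamini-Hochberg adjusted p under 0.05 over all 17410). The biological coefficient of variation was 0.536. The p-values set the difference between treatments against the spread between these libraries, estimated in part over all genes tested, and do not measure that spread. Summed counts of 1204502 to 6110438 set the precision. Pooled ratios were taken over summed TMM-scaled library sizes and carry 95% exact intervals for counts. The fit was tested on simulated data. limma 3.58.1, DESeq2 1.42.0, pandas 2.3.3, numpy 2.4.6, scipy 1.17.1, biopython 1.88 and matplotlib 3.10.9 in Python 3.11.15 were used for alternatives, alignments, summaries and figures.

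Gene names, groups, protein and coding sequences came from the study's supplementary list, of which 129 AP2/ERF genes, 20 of them in group IX, were at hand. The photosynthesis markers are from the study's own list of changed genes. The 6 genes and these lists were chosen with earlier results of these data known. Genes named besides the 6 are group IX genes on the same scaffolds, nearest the threshold or with a call that differed between the quasi-likelihood and likelihood ratio tests, the 3 AP2/ERF genes with the nearest profiles, and ADHa, ADHb and actin. A further control gene of this rule is not reported here. The other group IX genes and JcERFVIII-7 were named in addition after their values were seen. As alternatives, scaling was done by RLE, by the upper quartile or by total counts, and other filters (none, filterByExpr), other tests (likelihood ratio, DESeq2, limma voom), a replicate block, each library left out and pseudocounts of 0.25 and 5 were tried.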

Additional observations from a re-analysis of the deposited data

How the results depend on the processing

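Over 13 alternatives, the calls of the 6 genes were kept in 62 of 78 cases, lost in 16 and reversed in 0. Without an NS library all 6 were lost (12 cases), and the other 4 losses were JcERFIX-8 and JcERFIX-10 with limma voom and without WS replicate 1. Without NS replicate 1 or 2 the quasi-likelihood test called 0 of 17410 genes (lowest adjusted p 0.0592 and 0.0666), while 3133 and 2048 genes, the 6 among them, had an unadjusted p under 0.05. In these fits the lone library is taken to vary like those of the other treatment, and no other tool was run on those subsets.

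The number of group IX genes called higher (5) ranged from 0 (without NS replicate 1 or 2) to 8 (without WS replicate 2) with 1 library left out, and was 3 without WS replicate 1. The number called lower (1) ranged from 0 to 1 and was 2 with the likelihood ratio test. Over all genes, the number called higher (427) was 966 with no filter, 917 with the likelihood ratio test, 857 with DESeq2 and 0 to 1045 with 1 library left out, and the number called lower (333) was 997, 1069, 838 and 0 to 1248. Scaling by total library size moved the median of all log2 fold changes to -0.22 and split the calls 361 higher and 435 lower, and all 6 genes kept their call and direction. The numbers called lower with RLE, upper quartile and filterByExpr were 301, 286 and 276. limma voom called 435 genes higher and 437 lower.

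The labels tie the replicate numbers to no batch. Across the 17410 genes tested, the difference of replicate 1 from replicate 2 in NS correlated at 0.087 with that in WS. The methods name plants grown in more than 1 year without assigning libraries to years, so whether a number marks a shared season is not known. With that number as a replicate block, 802 genes were called higher and 882 lower, group IX had 7 higher (JcERFIX-1 and JcERFIX-13 added) and 1 lower, and the 6 genes kept their calls. No filter, the likelihood ratio test and DESeq2 also gave 7 higher with the same additions, and limma voom gave 4, with JcERFIX-1 added and JcERFIX-8 and JcERFIX-10 lost. Adjusted p values of JcERFIX-1 over all alternatives ranged from 4.5e-04 to 0.194. Depth limits the NS side: the 0 to 2 NS reads of JcERFIX-8 and JcERFIX-10 fix no fold change closely.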

Other observations

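Of the 6 group IX genes left untested for low counts, JcERFIX-9, JcERFIX-17 and JcERFIX-20 had no read in any library. JcERFIX-6 had 14 reads, all in WS replicate 1, JcERFIX-21 had 11 reads, all in WS replicate 2, and JcERFIX-12 had 1 and 1 reads in NS and 8 and 1 in WS. JcERFIX-6 and JcERFIX-21 were thus each seen in a single waterlogged library, and a count of 0 in NS replicate 2 allows up to 2.27 CPM.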
